A study of Mus musculus with 8 samples.

Results

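Oxidative phosphorylation genes were examined in single neurons of the mouse stellate ganglion, the sympathetic ganglion that supplies the heart and the forelimb. The members were all genes of the expression table whose symbols name a subunit of respiratory complexes I to V, or the ATP synthase inhibitor Atpif1. This gave 97 of 19224 genes, of which 13 are encoded by mitochondrial DNA and 84 by nuclear DNA. By complex, the nuclear members were 35 genes of complex I, 4 of complex II, 9 of complex III, 19 of complex IV and 17 of complex V.

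In oxidative phosphorylation, complexes I and II take electrons from NADH and succinate, complex III passes them to cytochrome c, and complex IV hands them to oxygen. Complexes I, III and IV pump protons across the inner mitochondrial membrane, and complex V, the ATP synthase, uses the return flow to make ATP. Each of these complexes except complex II is assembled from subunits of both genomes, and neurons draw most of their ATP from this pathway.

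All samples were of 1 condition, and those used here were all of the study's batch 2. They came from C57BL6/J mice aged 8 to 10 weeks, male by the study's methods, which had received AAV with GFP in the heart and AAV with tdTomato in the front paws to label neurons from their targets. The 16 left and right ganglia were combined for digestion according to the labels, so that whether single mice were digested apart is not given, and p-values measure the spread between these libraries. The values below rest on 1002 neurons of 5 mice, called mouse 1 to mouse 5, which the study had sorted into 8 subtypes: noradrenergic NA1a (182 neurons), NA1b (237), NA1c (216), NA2 (150) and NA3 (92), cholinergic Ach1 (62) and Ach2 (46), and glutamatergic Glut (17).

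Each library gave 916296 to 1196621 unique molecular identifiers (UMIs, each standing for 1 captured transcript). The median neuron held 8181.5 UMIs in NA1a, 3338 in NA1b, 2778.5 in NA1c, 2341.5 in NA2 and 6643.5 in NA3. All 6 neuronal markers, among them Snap25, Dbh and Th, were detected in each of these 5 subtypes. They summed to 44.2 to 54.4 UMIs per 10000 in the mice of NA3, against 96.3 to 110.5 in NA1a. The markers of satellite glia, the cells that wrap these neurons, summed to 187.5 to 346.9 UMIs per 10000 in the mice of NA3, against 6.52 to 8.60 in NA1a, and all 10 were highest in NA3. Markers of Schwann cells summed to 15.1 to 21.8 in NA3, against 2.34 to 3.08 in NA1a. Those of fibroblasts summed to 11.7 to 31.3, against 0.712 to 1.29. A total of 21 cell barcodes occurred in 2 to 5 of the libraries and accounted for 73 neurons, of which 55 were NA2 and 15 Ach2. Of the 98 pairs of neurons with the same barcode, 96 lay in the same subtype. Counts of called members, sums and some of the single members compared with NA2 are therefore also given without these neurons, an alternative chosen after seeing the data. Shares by complex and lists of other genes are given with these neurons only. The study kept neurons below 15% mitochondrial UMIs. The highest share found was 15%, and 95 neurons were above 12%, so the highest mitochondrial levels are bounded by that filter.

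The promoter windows of 5 members show the sequence around their start sites. They were chosen because the differences below turn on them: Ndufa12 was higher in NA1a than in NA2, Ndufs5 was higher in NA1a than in NA1b and NA1c, and Uqcr10, Cox8a and Atp5e were higher in NA2 than in NA1a. Each window runs from 250 bases before to 50 bases after the RefSeq start in GRCm38.p6 and is printed 5′ to 3′ on the gene's own strand. Capitals mark matches to the motif letters given below, and a window without capitals held none. The windows lie at chr10:94198785-94199084 (plus strand) for Ndufa12, chr4:123718137-123718436 (minus) for Ndufs5, chr11:4704295-4704594 (minus) for Uqcr10, chr19:7217567-7217866 (minus) for Cox8a and chr2:174464052-174464351 (minus) for Atp5e.
Ndufa12: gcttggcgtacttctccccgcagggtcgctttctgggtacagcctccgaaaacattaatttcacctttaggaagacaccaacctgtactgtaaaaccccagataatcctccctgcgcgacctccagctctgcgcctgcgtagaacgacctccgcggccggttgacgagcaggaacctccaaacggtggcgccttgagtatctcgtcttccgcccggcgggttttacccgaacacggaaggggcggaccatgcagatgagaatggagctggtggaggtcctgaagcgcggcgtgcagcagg
Ndufs5: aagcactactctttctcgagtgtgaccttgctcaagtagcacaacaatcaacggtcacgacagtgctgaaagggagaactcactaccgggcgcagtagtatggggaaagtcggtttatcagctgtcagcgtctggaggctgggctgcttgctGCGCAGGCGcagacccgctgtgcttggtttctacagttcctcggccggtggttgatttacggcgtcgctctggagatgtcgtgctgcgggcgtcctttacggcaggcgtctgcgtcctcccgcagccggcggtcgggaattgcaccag
Uqcr10: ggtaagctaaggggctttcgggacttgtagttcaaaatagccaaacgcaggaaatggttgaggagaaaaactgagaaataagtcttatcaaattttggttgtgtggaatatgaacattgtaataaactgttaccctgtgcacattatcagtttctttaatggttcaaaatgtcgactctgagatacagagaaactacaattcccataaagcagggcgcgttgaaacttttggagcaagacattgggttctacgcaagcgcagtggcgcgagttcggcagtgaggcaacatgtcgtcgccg
Cox8a: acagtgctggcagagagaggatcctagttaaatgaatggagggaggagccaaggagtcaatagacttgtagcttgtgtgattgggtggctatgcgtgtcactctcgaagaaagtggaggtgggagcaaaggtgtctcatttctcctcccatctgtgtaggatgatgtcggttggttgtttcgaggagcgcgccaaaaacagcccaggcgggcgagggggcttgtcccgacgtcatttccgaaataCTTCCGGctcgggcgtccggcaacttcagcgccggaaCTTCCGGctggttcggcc
Atp5e: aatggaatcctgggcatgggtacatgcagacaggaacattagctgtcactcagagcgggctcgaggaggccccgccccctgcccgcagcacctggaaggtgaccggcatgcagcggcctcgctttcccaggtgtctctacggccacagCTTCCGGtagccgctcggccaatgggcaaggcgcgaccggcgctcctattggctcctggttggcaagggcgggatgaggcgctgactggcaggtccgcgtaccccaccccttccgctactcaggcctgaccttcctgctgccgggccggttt

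The RefSeq starts of these windows lay 315 bases (Ndufa12), 16 (Ndufs5), 2 (Uqcr10), 0 (Cox8a) and 4 (Atp5e) from the start of the gene in the GENCODE annotation. The capitals in Ndufs5 match the NRF1 motif GCGCANGCG, and those in Cox8a and Atp5e match the GABPA motif CCGGAAG, read on the other strand. A window was given for 69 of the 84 nuclear members. The NRF1 motif, searched on both strands, was found in 21 of them (30.4%), against 7.03% of the windows of 27025 genes. The GABPA motif was in 16 (23.2%, against 9.93%) and the YY1 motif AAGATGGC in 10 (14.5%, against 3.19%). The TATA motif TATAAA was in 7 (10.1%, against 15.7%). NRF1, GABPA and YY1 are transcription factors known to act on genes of the respiratory chain. These matches are descriptions of the letters in the windows. Each gene's position is that of the annotation: Ndufa12 spans chr10:94198720-94221443, Ndufs5 chr4:123712710-123718202, Uqcr10 chr11:4701973-4704342, Cox8a chr19:7215153-7217616 and Atp5e chr2:174461072-174464105.

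Levels are mean UMIs per 10000 UMIs of a neuron, averaged over the neurons of a subtype in a mouse and then given as mean ± SD over mice. Only subtypes with at least 10 neurons in a mouse were used, which left 5 mice for NA1a, NA1b, NA1c and NA2 and 3 (mice 2, 4 and 5) for NA3. Over all neurons, the 13 mitochondrially encoded members summed to 504.5 ± 59.1 UMIs per 10000 (SD, n = 5 mice) and the 84 nuclear members to 234.3 ± 51.8. By mouse, the mitochondrial sum was 574, 514, 410, 515 and 511 for mice 1 to 5, and the nuclear sum was 248, 189, 305, 252 and 178. Mouse 3 held the lowest mitochondrial and the highest nuclear sum. Mice differed in their mix of subtypes, so these whole-ganglion sums depend on it.

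Single nuclear members differed widely in level. Atpif1, the peptide that inhibits ATP hydrolysis by ATP synthase, was the highest of them at 16.3 UMIs per 10000 over all neurons. Cox8a (8.73), Cox4i1 (7.04) and Ndufa4 (7.03), all subunits of complex IV, followed among the members named here. In the mitochondrial genome mt-Atp6, the proton-channel subunit of complex V, stood at 103 UMIs per 10000. A total of 11 members averaged below 0.5 UMIs per 10000 over all neurons. Since each molecule gives 1 tag, these levels need no correction for gene length.

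Isoforms known from other tissues were at or near 0. No UMI of Cox6a2 or Cox8b, the heart and muscle isoforms of complex IV subunits, was found in 1002 neurons, and the limit that a count of 0 sets at this depth is 0.299% of neurons with a UMI. Cox7a1, the muscle isoform of Cox7a, was at 0.0856 UMIs per 10000, against 4.02 for its partner Cox7a2. Cox4i2 and Cox6b2 were at 0.0248 and 0.0324, against 7.04 for Cox4i1 and 5.27 for Cox6b1. Ndufa4l2, the paralog of Ndufa4, was at 0.0480. Cox7a1 averaged 0.363 in NA3, where satellite glial markers were also highest, and 0.0502 to 0.0670 in the other 4 noradrenergic subtypes. The part of glial RNA in that level was not tested.

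The nuclear members ordered the noradrenergic subtypes. Their sum was highest in NA2 at 428 ± 44.3 UMIs per 10000, with 436, 469, 463, 411 and 360 in mice 1 to 5. NA1a followed at 233 ± 36.5, with 265, 259, 238, 228 and 174. The groups did not overlap. NA3 reached 196 ± 35.9 (238, 177 and 174 in mice 2, 4 and 5), inside the range of NA1a and overlapping that of NA1b. NA1b reached 178.5 ± 33.4 (157, 138, 223, 197 and 178). NA1c was lowest at 146 ± 9.82 (145, 142, 163, 139 and 140), inside the range of NA1b.

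**Figure D1:**
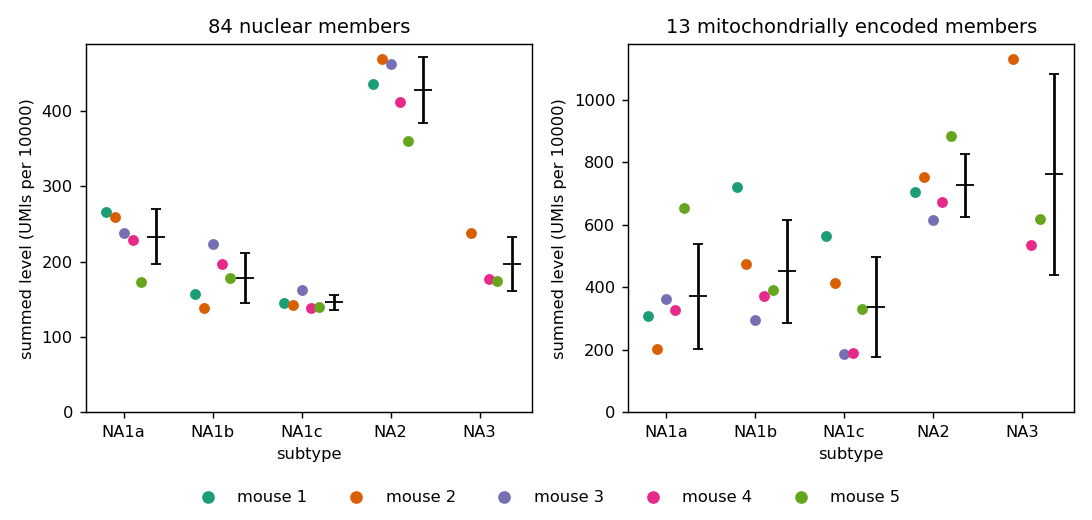
Summed level of the nuclear and of the mitochondrially encoded oxidative phosphorylation genes (vertical axes, UMIs per 10000 UMIs) by noradrenergic subtype. Points are single mice, and bars are the mean ± SD. The nuclear sum of every NA2 mouse (360 to 469) is above that of every mouse of the other subtypes shown. The mitochondrial sums of NA1a, NA1b and NA1c overlap widely. The mitochondrial sum of every NA2 mouse (616 to 884) is above every NA1c mouse (188 to 565). In this sum NA2 overlaps NA1a, NA1b and NA3.

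The mitochondrially encoded members varied more between mice. Their sum was 308, 204, 363, 327 and 653 UMIs per 10000 in NA1a of mice 1 to 5, and 721, 476, 296, 371 and 392 in NA1b. In NA1c it was 565, 414, 188, 190 and 330. These 3 subtypes overlapped and had means of 371 ± 168, 451 ± 164 and 337 ± 159. NA2 held 706, 754, 616, 674 and 884 (727 ± 101), and NA3 held 1131, 535 and 618 in mice 2, 4 and 5 (761 ± 323). NA2 was above NA1a in each of the 5 mice, but its lowest mouse (616) was below the highest NA1a mouse (653).

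The mitochondrial transcripts were also read as shares of their sum. Of their UMIs, mt-Atp6 took 19.8% ± 2.44 in NA1a and 19.6% ± 2.01 in NA2 (SD, n = 5 mice each). The cytochrome oxidase subunits mt-Co2 and mt-Co3 took 14.97% and 15.5% in NA1a, and 16.0% and 14.1% in NA2. The complex III subunit mt-Cytb took 10.3% and 10.7%. The small genes mt-Atp8 and mt-Nd4l took 1.08% and 2.41% in NA1a, and 0.602% and 1.75% in NA2. The only mitochondrial member on the minus strand of the reference, mt-Nd6, took 0.200% in NA1a and 0.116% in NA2. mt-Atp8 overlaps mt-Atp6, and mt-Nd4l overlaps mt-Nd4, on the mitochondrial genome, so reads of the overlaps cannot be assigned to 1 gene with certainty.

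The subtypes were compared gene by gene to ask which members differed and how steadily. The study clustered the same neurons to define the subtypes, so the tests measure how steady a difference was over mice and are not independent evidence for the subtypes. limma was fitted to log2(level + 0.1) with the mouse as a block, over the 6185 genes at 0.5 UMIs per 10000 or more in at least 3 of the 23 profiles of a subtype in a mouse. These held 13 mitochondrial and 76 nuclear members. A low gene could pass through the subtype where it was high, so the counts were repeated over the 3827 genes whose mean over all 23 profiles was at least 0.5, an alternative chosen after seeing the data. That left out 3 members, Ndufa9, Sdhc and Sdhd. Log2 differences below are on this scale, which understates the change of low genes, and a gene was called, or is said to be higher or lower, at a Benjamini-Hochberg adjusted p below 0.05 over all genes tested. Comparisons with NA1a share the NA1a samples. Genes of these subunits have many near-identical processed pseudogenes, so that counts of single nuclear members are uncertain where reads match both.

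Against NA2, NA1a had lower levels of most members. Of the 76 nuclear members 59 were lower (16.6% of all genes tested were lower) and 2 were higher (32.0% of all genes were higher). Of the 13 mitochondrial members 9 were lower and 0 higher, with 0 higher also at an unadjusted p under 0.05. The median log2 difference was −1.02 for nuclear and −1.03 for mitochondrial members, against 0.23 for all genes. On summed levels the nuclear members were 1.85-fold lower in NA1a (log2 −0.89 ± 0.13, SD, lower in 5 of 5 mice). With centring on the median gene the nuclear difference was −1.15. With the filter on the mean over all profiles, 57 of 73 nuclear members were lower and 2 higher, against 23.3% and 33.1% of all genes.

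**Figure D2:**
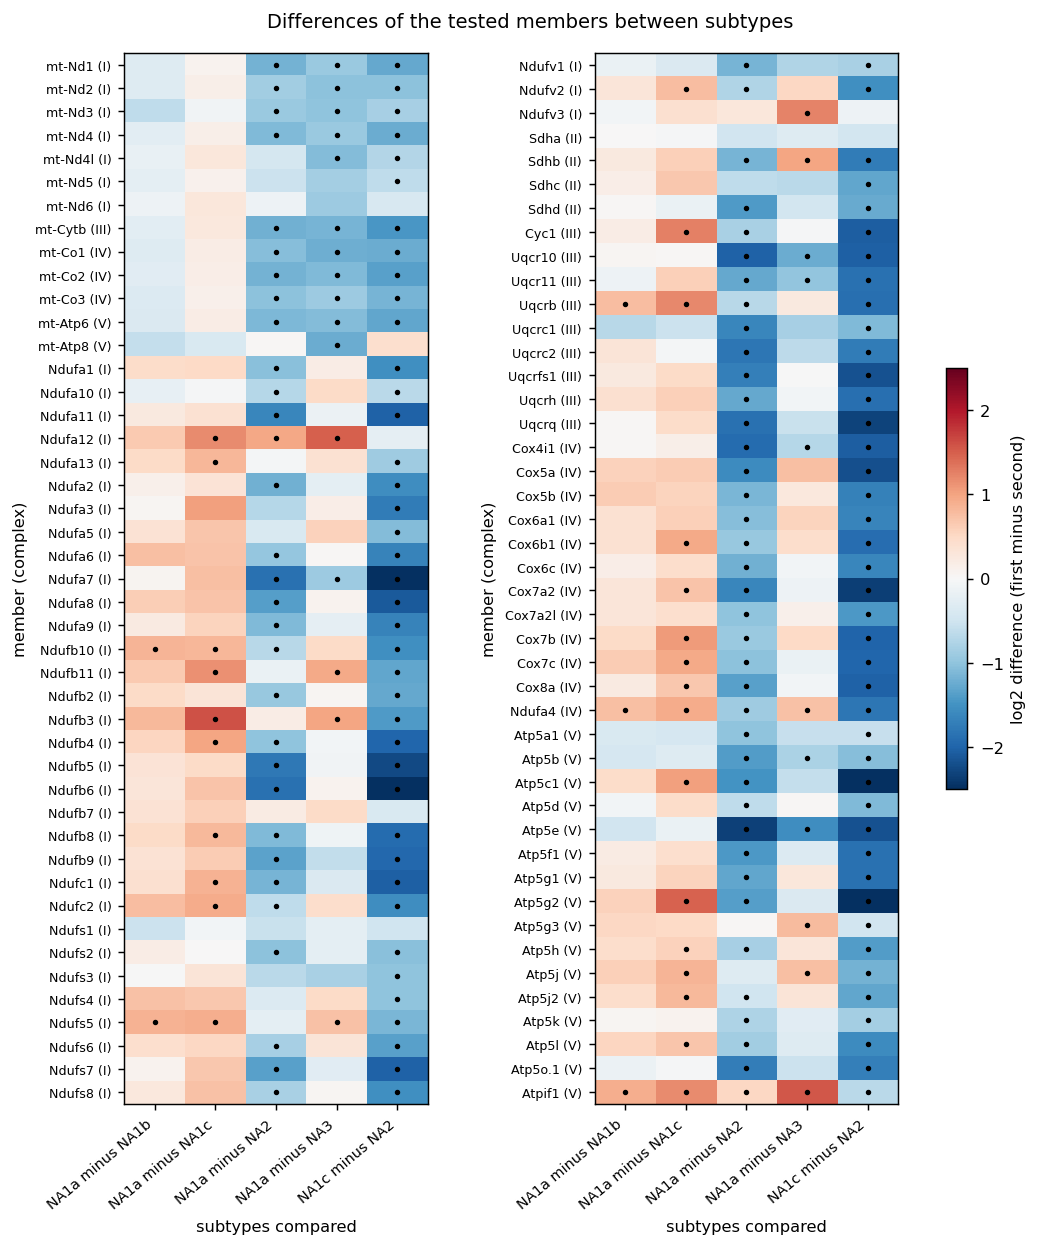
Log2 difference of each tested oxidative phosphorylation gene (rows, grouped by complex and genome) in each of 5 comparisons of subtypes (columns, first minus second), from the limma fits on log2(UMIs per 10000 + 0.1). Dots mark called members, red is higher in the first subtype and blue lower. Most members are lower in NA1a and NA1c than in NA2, with Atpif1 and Ndufa12 higher in NA1a than in NA2 by 0.52 and 0.96.

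The complexes shared this unevenly. Complex III was 2.72-fold lower in NA1a than in NA2 (log2 −1.44 ± 0.18), complex IV 2.37-fold (−1.25 ± 0.21) and complex II 2.07-fold (−1.05 ± 0.33). Complex I was 1.65-fold lower (−0.72 ± 0.17) and complex V 1.51-fold (−0.60 ± 0.06). Each sum was lower in 5 of 5 mice. All 9 members of complex III and all 12 tested nuclear members of complex IV were called lower. The counts were 23 of 35 in complex I, 2 of 4 in complex II and 13 of 16 in complex V (16.6% of all genes were lower). Without the neurons of shared barcodes these counts were 7 of 9 in complex III and 12 of 12 in complex IV. They were 16 of 35 in complex I, 1 of 4 in complex II and 12 of 16 in complex V (12.1% of all genes were lower). In complex III, Uqcrb (limma adjusted p = 0.0872) and Cyc1 (limma adjusted p = 0.868) were then not called. With all neurons and the filter on the mean over all profiles, 22 of 34 were lower in complex I and 1 of 2 in complex II (23.3% of all genes). Complexes III, IV and V then gave 9 of 9, 12 of 12 and 13 of 16. As a share of the nuclear members' UMIs, complex IV made up 24.7% ± 2.15 in NA1a and 32.1% ± 1.77 in NA2, complex III 6.07% ± 0.448 and 8.95% ± 0.617, and complex V 34.6% ± 2.21 and 28.1% ± 0.798. The mean shares of complex IV in NA1b and NA1c, 24.7% and 24.4%, were close to that of NA1a. In NA3 (3 mice) complex III made up 9.45% ± 0.662, its mean above that of NA2, and complexes IV and V 26.5% and 31.4%. In Ach2 (2 mice) complexes III, IV and V made up 7.61%, 30.3% and 30.6%.

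**Figure D3:**
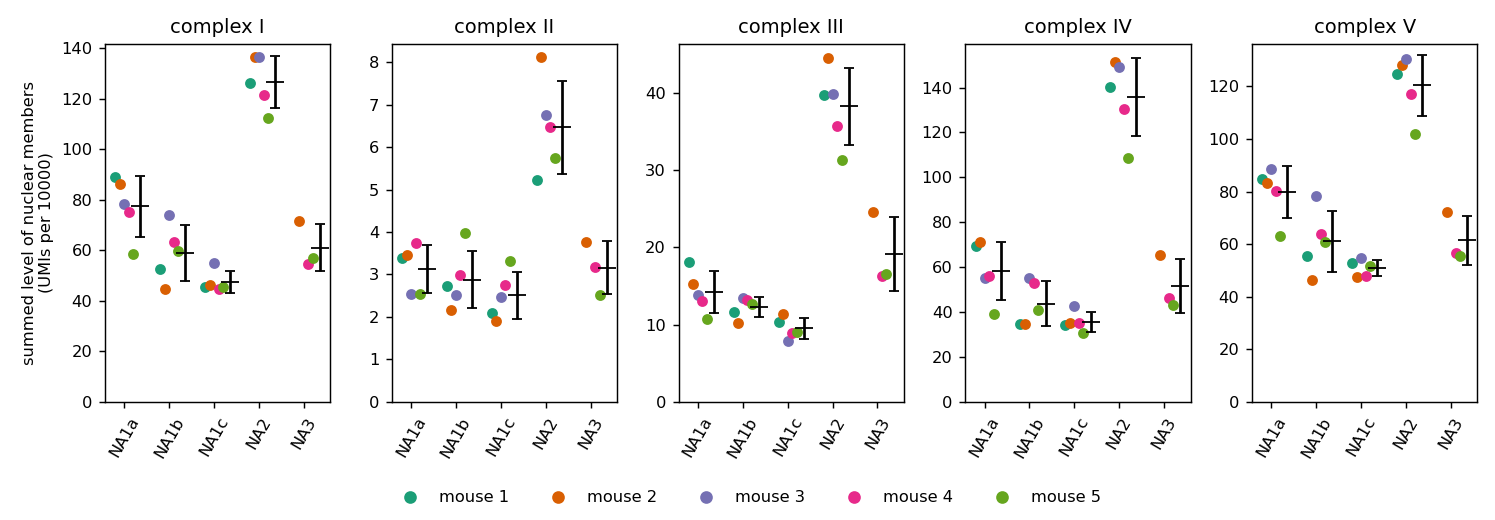
Summed level of the nuclear members of each complex (vertical axis, UMIs per 10000 UMIs) by noradrenergic subtype. Points are single mice, and bars are the mean ± SD. NA2 lies above NA1a in every complex, by 2.72-fold in complex III and 1.51-fold in complex V.

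Atp5e, the epsilon subunit in the stalk of ATP synthase, showed the largest such difference. It was at 1.47, 1.62, 1.55, 1.11 and 1.37 UMIs per 10000 in NA1a of mice 1 to 5, and at 7.64, 6.93, 9.12, 6.28 and 8.26 in NA2. The groups did not overlap, and the log2 difference was −2.34 (SE 0.21, limma adjusted p = 5.33e-12). Uqcr10, a small subunit of complex III, was at 1.59, 1.13, 1.20, 1.45 and 0.808 in NA1a and at 5.99, 6.87, 5.12, 4.65 and 3.93 in NA2. Every NA2 mouse was above every NA1a mouse, with a difference of −2.03 (SE 0.22, limma adjusted p = 7.85e-10).

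Cox4i1, the regulatory subunit of complex IV that binds adenine nucleotides, was at 4.59, 4.00, 5.01, 4.09 and 3.67 UMIs per 10000 in NA1a and at 20.6, 17.6, 19.0, 15.1 and 11.2 in NA2. Here too the groups were apart, by a log2 difference of −1.92 (SE 0.18, limma adjusted p = 1.85e-11). The complex I subunits Ndufa7 and Ndufb6 differed by −1.88 and −1.87. Cox8a, another small subunit of complex IV, was at 7.49 ± 1.68 in NA1a and 18.9 ± 2.37 in NA2, a difference of −1.35 (SE 0.20, limma adjusted p = 7.28e-07).

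Only Atpif1 and Ndufa12 among the nuclear members were called higher in NA1a than in NA2. Atpif1 was at 27.5, 25.3, 34.9, 28.6 and 21.7 UMIs per 10000 in NA1a and at 18.8, 19.8, 21.8, 17.0 and 17.9 in NA2. The highest NA2 mouse (21.8) just overlapped the lowest NA1a mouse (21.7). The log2 difference was 0.52 (SE 0.20, limma adjusted p = 0.0283). Ndufa12, an accessory subunit of complex I, was at 4.62, 4.16, 5.21, 3.84 and 3.10 in NA1a and at 2.76, 2.65, 2.64, 1.86 and 1.05 in NA2. Its groups did not overlap (difference 0.96, SE 0.25, limma adjusted p = 0.00160). Ndufa12 was called under every alternative run, whereas Atpif1 was not called with no filter, without the block, with centring on the median gene, per 10000 nuclear-encoded UMIs, with thinning, or without mouse 1, 3 or 4, where its difference was 0.25 to 0.54.

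**Figure D4:**
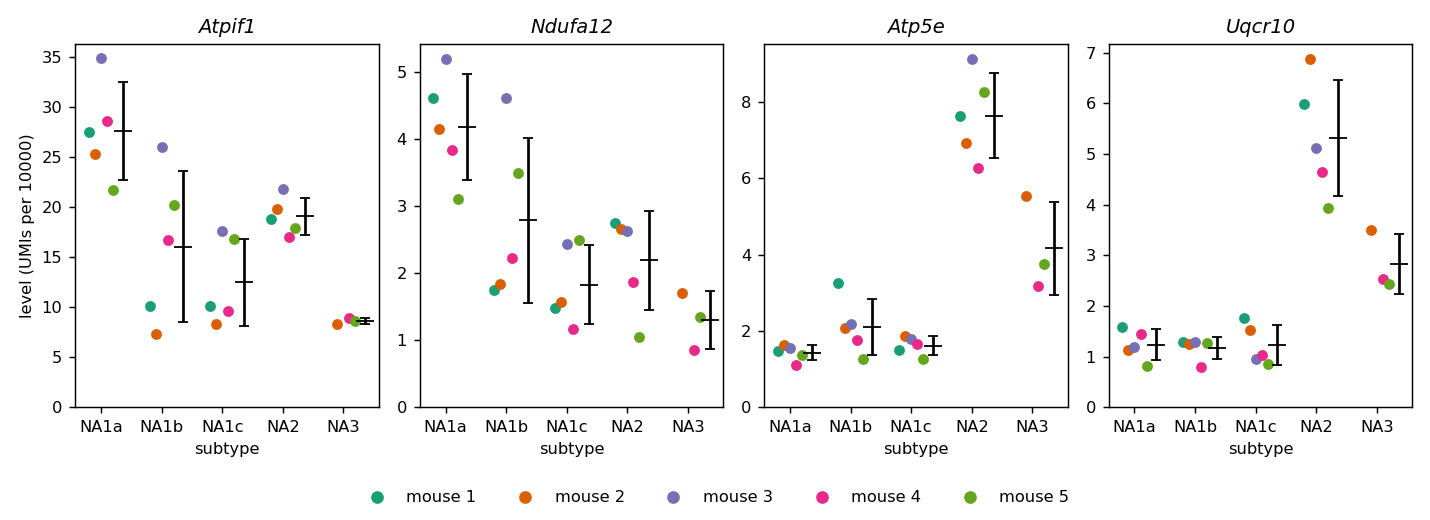
Level of Atpif1, Ndufa12, Atp5e and Uqcr10 (vertical axes, UMIs per 10000 UMIs) by noradrenergic subtype. Points are single mice, and bars are the mean ± SD. Atpif1 and Ndufa12 are highest in NA1a by their means, and Atp5e and Uqcr10 are highest in NA2, at 7.65 and 5.31 against 1.43 and 1.24 in NA1a.

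The c-ring of ATP synthase, whose subunit c is encoded by 3 genes, was not uniform. Atp5g1 was at 4.02 ± 1.14 in NA1a and 9.88 ± 2.32 in NA2 (difference −1.30, SE 0.20, limma adjusted p = 1.47e-06). Atp5g2 was at 2.17 ± 0.277 and 5.78 ± 0.512 (−1.38, SE 0.24, limma adjusted p = 1.11e-05). Atp5g3 was at 6.26 ± 0.378 and 6.24 ± 1.15, a difference of 0.02 (SE 0.18, limma adjusted p = 0.929). The differences between the genes were not tested.

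Of the mitochondrial members, mt-Atp6 was at 56.8, 34.1, 71.4, 67.7 and 148 UMIs per 10000 in NA1a of mice 1 to 5 and at 134, 143, 122, 145 and 208 in NA2. NA2 was higher in each mouse, though NA1a of mouse 5 reached into the NA2 range (difference −1.13, SE 0.25, limma adjusted p = 0.000254). mt-Atp8 was at 4.03 ± 2.31 and 4.11 ± 3.16 (difference 0.03, SE 0.29, limma adjusted p = 0.952). The NA2 mean of mt-Atp8 rests on mouse 5, at 9.75 against 2.56 to 2.91 in the others. mt-Nd4l, mt-Nd5 and mt-Nd6 were the other 3 mitochondrial members not called. Without the neurons of shared barcodes, mt-Atp8 (−0.68, limma adjusted p = 0.0397), mt-Nd4l (−1.03) and mt-Nd5 (−0.995) were called lower in NA1a, and mt-Nd6 was not called.

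Other measures moved with NA2. The nuclear transcript Malat1 was at 35.1 to 98.4 UMIs per 10000 in NA2 and at 749 to 1016 in NA1a, and cytosolic ribosomal protein genes summed to 705 to 932 and 327 to 600. Their part in the differences was not tested. The list of cytosolic ribosomal protein genes was taken by symbol (Rpl and Rps) and also holds other genes, such as Rps6kb2 and Rps19bp1. Without the neurons of shared barcodes, which left mice 1, 3, 4 and 5 for NA2, 2 nuclear members were higher and 48 lower, and 12 mitochondrial members were lower (27.2% of all genes higher and 12.1% lower). The log2 difference of the sum was then −0.84 for the nuclear and −1.05 for the mitochondrial members, and −0.68, −0.84, −1.32, −1.24 and −0.55 for complexes I to V. Atp5e then differed by −2.49, Uqcr10 by −2.13, Cox4i1 by −1.87, Atpif1 by 0.67 and Ndufa12 by 1.20, all called by limma. Within NA2, the 55 neurons with a shared barcode summed to 465 for nuclear and 524.5 for mitochondrial members, and the other 95 to 413 and 789.

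Lists of other mitochondrial genes were read in the same fit, where 16.6% of all genes were lower in NA1a than in NA2 and 32.0% higher. Of 62 mitochondrial ribosomal protein genes tested, which take part in making the mitochondrial subunits, 33 (53.2%) were lower and 1 was higher (Mrpl38). Of the 47 that passed the filter on the mean over all profiles, 24 were lower and 2 higher (23.3% and 33.1% of all genes). All 6 genes for carriers and porins, which move ATP, ADP and phosphate across the mitochondrial membranes, were lower, as was cytochrome c (Cycs, 1.67 ± 0.811 against 3.76 ± 0.664, log2 −1.26). Of 12 citrate cycle genes 6 were lower and 1 higher (5 and 1 of 9 with the filter on the mean), of 5 genes of pyruvate entry 3 were lower, and of 16 glycolytic genes 10 were lower and 1 higher. Of 23 assembly factors tested, 5 were lower (21.7%, near the 16.6% of all genes) and 2 higher, and of the 13 that passed the filter on the mean 4 were lower and 2 higher. Coa3, which assists in making mt-Co1, was at 0.917 ± 0.150 against 4.33 ± 0.945 in NA2, and Ttc19, an assembly factor of complex III, at 1.32 ± 0.434 against 0.353 ± 0.272. Outside the pathway, 57 of the 86 tested genes on the cytosolic ribosomal protein list and 20 of 35 proteasome genes were also lower. With the filter on the mean, which left out Rpl7l1, Rps19bp1, Rps6kb2, Rps6kc1 and Rps6kl1, 58 of 81 on that list were lower and 3 higher.

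NA1c lay even further below NA2. Of 76 nuclear members 71 were lower in NA1c (23.4% of all genes were lower) and 0 were higher (36.5% of all genes were higher). The mitochondrial members gave 11 lower and 0 higher. At an unadjusted p under 0.05 there were also 0 higher members of either kind. The median log2 difference was −1.64 for nuclear and −1.16 for mitochondrial members, against 0.29 for all genes. The nuclear sum was 2.92-fold lower (log2 −1.55 ± 0.13), complex III 4.02-fold (−2.01 ± 0.20) and complex IV 3.82-fold (−1.93 ± 0.13), each in 5 of 5 mice. With the filter on the mean over all profiles, 68 of 73 nuclear members were lower and 0 higher (30.5% and 36.9% of all genes). Outside the pathway, with that filter, 74 of 81 cytosolic ribosomal protein genes (91.4%) were lower in NA1c and 2 higher. Of 33 proteasome genes 22 were lower and 1 higher.

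Atp5g2 differed most. It was at 0.400, 0.728, 1.08, 0.528 and 1.08 UMIs per 10000 in NA1c and at 5.67, 6.36, 6.09, 5.79 and 5.00 in NA2, with no overlap (log2 −2.85, SE 0.24, limma adjusted p = 9.27e-13). Ndufa7 (−2.62), Ndufb6 (−2.58), the gamma subunit of ATP synthase Atp5c1 (−2.52) and Cox7a2 (−2.35) followed. The 5 nuclear members not called were Ndufs1, Ndufa12, Ndufb7, Sdha and Ndufv3. Without shared barcodes the counts were 64 nuclear and 12 mitochondrial members lower and 0 higher (19.4% of all genes lower and 32.7% higher). The nuclear sum then differed by −1.45, the complex III sum by −1.93, the complex IV sum by −1.84, Atp5g2 by −2.70 and Ndufb6 by −2.30.

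NA1a and NA1c separated in the nuclear members. In NA1a 26 of 76 were higher (3.93% of all genes were higher) and 0 lower (1.75% of all genes were lower), with 0 lower also at an unadjusted p under 0.05. Of the 13 mitochondrial members 0 were called by limma, and 0 had an unadjusted p under 0.05. The nuclear median was 0.60, against −0.005 for all genes. The nuclear sum was 1.58-fold higher in NA1a (log2 0.66 ± 0.24, 5 of 5 mice), while the mitochondrial sum differed by 0.16 ± 1.02 and was higher in 3 of 5 mice. The called members spanned complexes I (11), III (2), IV (6) and V (7).

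Ndufb3, an accessory subunit of complex I, was at 4.55, 4.69, 2.73, 2.84 and 2.96 UMIs per 10000 in NA1a and at 0.941, 0.798, 1.57, 0.682 and 1.75 in NA1c (called difference 1.60, SE 0.26, limma adjusted p = 0.000243). The groups did not overlap. Atp5g2 differed by 1.47, Cyc1, the cytochrome c1 of complex III, by 1.25, Uqcrb, another complex III subunit, by 1.19, and Atpif1 by 1.19. Atpif1 in NA1c was at 10.1, 8.35, 17.6, 9.61 and 16.8, below every NA1a mouse. Cycs was also higher in NA1a (1.00, limma adjusted p = 0.0208), as were 5 of 62 mitochondrial ribosomal protein genes (8.06%, against 3.93% of all genes) and the assembly factors Sdhaf4 and Cox14. Of 16 glycolytic genes, 2 were lower in NA1a (12.5%, against 1.75% of all genes). The count of higher nuclear members was 11 without mouse 1 (1.79% of all genes) and 17 without mouse 4 (2.17%). With the filter on the mean over all profiles it was 28 of 73, with 0 lower (6.77% and 2.82% of all genes). Outside the pathway, with that filter, 28 of 81 cytosolic ribosomal protein genes (34.6%) were higher in NA1a and 0 lower. Of 33 proteasome genes 0 were called.

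Between NA1a and NA1b 5 nuclear members were higher in NA1a (2.67% of all genes were higher) and 0 lower (1.47% of all genes were lower), where 2 were lower at an unadjusted p under 0.05. Of the mitochondrial members 0 were called by limma, and 2 had an unadjusted p under 0.05. The nuclear sum differed by log2 0.39 ± 0.42 and was higher in 4 of 5 mice. By mouse the difference was 0.758, 0.911, 0.0929, 0.217 and −0.0375 in mice 1 to 5. The median NA1b neuron of these mice held 2569, 2615.5, 6300, 9223 and 5807 UMIs. The part of depth in the difference was not tested. The mitochondrial sum differed by −0.32 ± 0.89 and was lower in 3 of 5. The nuclear median was 0.31, against −0.003 for all genes.

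Of the 5, Atpif1 was at 10.1, 7.26, 26.0, 16.7 and 20.2 UMIs per 10000 in NA1b of mice 1 to 5, lower than NA1a in each mouse though the ranges overlapped (difference 0.91, SE 0.20, limma adjusted p = 0.00374). Ndufs5, an accessory subunit of complex I, was at 6.78, 6.76, 5.24, 4.89 and 4.22 in NA1a and at 3.19, 2.00, 3.49, 2.79 and 3.75 in NA1b. Its groups did not overlap (0.86, SE 0.20, limma adjusted p = 0.00632). Ndufb10 differed by 0.84, Uqcrb by 0.77 and Ndufa4 by 0.74. With the filter on the mean over all profiles 6 were higher and 0 lower (4.47% and 2.06% of all genes). The count of 5 was 0 without mouse 1 (1.23% of all genes), 1 without mouse 2 (1.71%) and 8 without mouse 5 (1.81%). It was 1 with thinning to 2000 UMIs per neuron (0.761%). In NA1b satellite glial markers summed to 21.8 in mouse 1 and 3.32 to 14.5 in the other mice. Of the 86 tested genes on the cytosolic ribosomal protein list 30 were higher in NA1a (34.9%, against 2.67% of all genes), and of 16 glycolytic genes 1 was lower.

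Between NA1a and NA3, nuclear members were called in both directions, at shares near those of all genes. Of 76 nuclear members 10 were higher in NA1a (11.8% of all genes were higher) and 6 lower (7.29% of all genes were lower), with a median of −0.02 against 0.25 for all genes. The nuclear counts were near those shares. They were 5 higher without mouse 4 (6.52% of all genes) and 6 without mouse 1 (10.2%). Lower were 2 without mouse 2 (5.87%) and 3 without mouse 4 (6.24%). With the filter on the mean over all profiles the nuclear counts were 10 higher and 6 lower (16.5% and 6.32% of all genes). Of the 13 mitochondrial members 11 were lower in NA1a, with a median of −1.02. Without mouse 2 the count was 0, and the mitochondrial sum was lower in NA1a in 2 of 3 mice (log2 −1.04 ± 1.31). NA3 of mouse 2 stood at 1131, its neurons had a median of 14025 UMIs, and its glial markers summed to 346.9, against 187.5 and 234.5 in mice 4 and 5. The part of each was not tested.

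Higher in NA1a were Atpif1, at 8.34, 8.87 and 8.60 UMIs per 10000 in NA3 of mice 2, 4 and 5 (difference 1.56, SE 0.24, limma adjusted p = 2.42e-06), and Ndufa12, at 1.70, 0.850 and 1.35 (1.499, SE 0.30, limma adjusted p = 0.000204). Both were below every NA1a mouse. Ndufv3, a subunit of the NADH-binding part of complex I, differed by 1.23, Ndufb3 by 0.98 and Sdhb, the iron-sulfur subunit of complex II, by 0.98. Lower in NA1a were Atp5e, at 5.54, 3.19 and 3.77 in NA3 (−1.56, SE 0.25, limma adjusted p = 4.81e-06), and Uqcr10, at 3.50, 2.53 and 2.43 (−1.23, SE 0.26, limma adjusted p = 0.000503). mt-Atp8 differed by −1.25. The complex III sum was lower in NA1a in 3 of 3 mice (−0.54 ± 0.20), and the complex I and V sums were higher in 3 of 3 (0.26 ± 0.21 and 0.30 ± 0.18).

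Npy, a peptide cotransmitter of sympathetic neurons, divides the noradrenergic neurons in the study, and the members were compared between its extremes. Npy-high neurons were the top 30% of NA1a, NA1b and NA3 (above 52.8 UMIs per 10000) and Npy-low neurons the bottom 30% (at or below 5.57). The high stratum held 138 NA1a, 8 NA1b and 7 NA3 neurons, and the low stratum 5, 118 and 31, so that Npy and subtype cannot be told apart here. Median UMIs per neuron were 8264 and 6084.

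Of 72 nuclear members tested 11 were higher in Npy-high neurons (6.82% of 3915 genes were higher) and 1 lower (5.72% of genes were lower). With the filter on the mean over all profiles of the strata, 11 of 71 were higher and 1 lower (6.73% and 5.65% of all genes). Outside the pathway, with that filter, 24 of 81 cytosolic ribosomal protein genes (29.6%) were higher and 1 lower. Of 32 proteasome genes 2 were higher and 0 lower. Of 13 mitochondrial members 0 were higher, also at an unadjusted p under 0.05, and 1 was lower. Leaving out 1 mouse, the count of higher nuclear members was 3 (mouse 1), 5 (mouse 2), 7 (mouse 3 or 4) or 15 (mouse 5). Of all genes 4.26%, 5.49%, 4.96%, 4.7% and 7.09% were higher without mice 1 to 5. The count of lower mitochondrial members was 0 or, without mouse 5, 9 (5.45% of all genes lower). The nuclear sum was 236 ± 29.4 in Npy-high and 193 ± 30.6 in Npy-low neurons, higher in 5 of 5 mice. The mitochondrial sum was 367 ± 175 and 417 ± 109, higher in 1 of 5. Medians were 0.26 and −0.26 for nuclear and mitochondrial members, against −0.001 for all genes.

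Atpif1 was at 27.7 ± 6.35 in Npy-high and 15.6 ± 5.82 in Npy-low neurons (difference 0.88, SE 0.15, limma adjusted p = 5.94e-05, 5 of 5 mice). Ndufa4 (0.70), Ndufa12 (0.69), Ndufb10 (0.67) and Ndufs5 (0.67) were also higher. Atp5e was the 1 nuclear member lower (1.51 ± 0.340 against 2.39 ± 0.543, difference −0.63, SE 0.18, limma adjusted p = 0.0195), and mt-Nd3, a complex I subunit, the 1 mitochondrial member (−0.56).

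When the strata were drawn within NA1a, 3 mice could be compared. Then 7 mitochondrial members were lower in Npy-high neurons (0.329% of 3956 genes were lower) and 1 nuclear member, Atp5g1, was higher (0.228% of genes were higher; difference 0.93, limma adjusted p = 0.0356). The complex I subunit mt-Nd5 differed by −1.23, mt-Nd4l by −0.89, mt-Nd2 by −0.75, the catalytic cytochrome oxidase subunit mt-Co1 by −0.68 and mt-Atp6 by −0.67. The mitochondrial sum was 266 ± 64.7 against 404 ± 44.3, and the nuclear sum 279 ± 22.5 against 215 ± 39.7, each in the same direction in 3 of 3 mice. Atp5e differed by 0.01 and was not called. Mouse 5 was not among these 3 mice. In the strata over NA1a, NA1b and NA3, lower mitochondrial members numbered 1 with mouse 5 and 9 without it (5.72% and 5.45% of all genes).

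Within a subtype, neurons varied most in the mitochondrial members. In NA1a the median neuron held 167 UMIs per 10000 and the quartiles were 86.9 and 445, while the nuclear sum had a median of 242 and quartiles of 191.5 and 280.5. Above 1000 UMIs per 10000 for the mitochondrial members lay 25 of 182 NA1a neurons (13.7%, exact binomial 95% interval 9.09 to 19.6), 33 of 237 NA1b (13.9%, 9.78 to 19.0) and 4 of 216 NA1c (1.85%, 0.507 to 4.67). The counts were 32 of 150 in NA2 (21.3%, 15.1 to 28.8) and 25 of 92 in NA3 (27.2%, 18.4 to 37.5), of which 17 came from the 23 neurons of mouse 2. By mouse the share ran from 3.70% (mouse 2) to 34.8% (mouse 5) in NA1a. In NA1b it ran from 6.45% (mouse 3) to 31.6% (mouse 1), and in NA2 from 13.95% (mouse 4) to 47.1% (mouse 5). The intervals pool the neurons of all mice, cover counting error only and leave out this spread between mice. The study's filter bounds these tails.

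To compare nuclear with mitochondrial members in single neurons, each neuron was thinned to 2000 UMIs and shallower neurons were left out. Over mice, the median Spearman correlation was −0.364 in NA1a and −0.253 in NA1b, below 0 in all 5 mice of each, and −0.379 over 4 mice in NA2, where mouse 5 alone was above 0, at 0.295. In NA1c it was 0.00836, and in NA3 it was 0.291 over 3 mice, above 0 in each. The nuclear list, divided into 2 sublists by alternate members, correlated with itself at 0.601 (median over 22 profiles of a subtype in a mouse, all above 0), and complexes I and IV at 0.407. The neurons share a library, and both sums are parts of the same 2000 UMIs, so these values describe the libraries and were given no test.

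**Figure D5:**
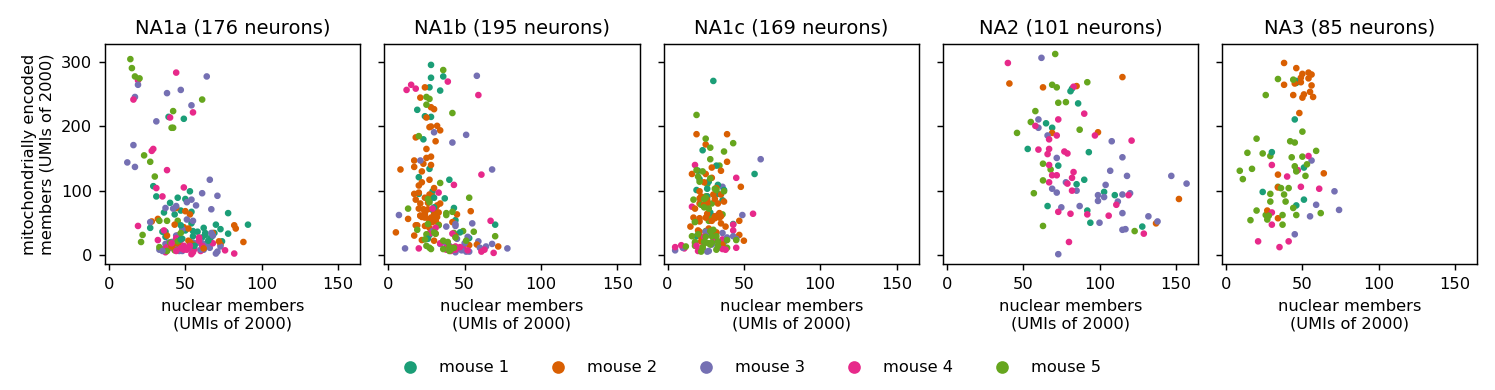
Single neurons thinned to 2000 UMIs, with the summed nuclear members on the horizontal and the mitochondrially encoded members on the vertical axis (UMIs of 2000), by noradrenergic subtype. Each point is a neuron, coloured by mouse. NA2 neurons lie at the highest nuclear sums (median 82 UMIs, against 47.5 in NA1a).

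The remaining subtypes had at least 10 neurons in only 1 or 2 mice and are given as values. In Ach1, of which 55 of 62 neurons came from mouse 4, the nuclear members summed to 252 and the mitochondrial to 824 UMIs per 10000. In the same neurons the markers of satellite glia summed to 113.1, of fibroblasts to 40.0 and of immune cells to 9.77, against 7.23, 0.915 and 0.384 in NA1a, and their part in these values was not tested. In Ach2 the sums were 342 and 376, and in Glut 139 and 715. The nuclear sum of Ach2 was 420 in mouse 1 (13 neurons), inside the range of the NA2 mice, and 256 in mouse 4 (17 neurons). Atp5e was at 7.10 in Ach1, 4.45 in Ach2 and 1.17 in Glut, and Atpif1 at 10.1, 19.0 and 4.34. In Ach2 the 15 neurons with a shared barcode had a nuclear sum of 564.5 and Malat1 at 82.3, and the other 31 had 235 and 1128, so the Ach2 values rest on 2 unlike sets of neurons.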

How the data were processed

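Single neurons of mouse stellate ganglia were measured by droplet RNA sequencing, without treatment groups. The authors deposited natural log values, the natural log of 1 plus UMIs scaled to 10000 per neuron, with a subtype and a mouse for each neuron. The submitters' processing notes name Cell Ranger 2.1.1, Seurat, Scanpy and mm10. The study's filter was 500 to 6000 genes, under 20000 UMIs and under 15% mitochondrial UMIs, and no doublet step is named in the sources used here. None was added. Whole UMIs were recovered from the deposited values (100% of nonzero values within 0.01 of a whole number). 3 mouse names (301 neurons) matched no single sample and were not used. The mice used were all of the study's batch 2, so no sample of its batch 1 is part of the values.

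Levels were averaged per subtype and mouse (at least 10 neurons), genes at 0.5 UMIs per 10000 or more in at least 3 of 23 profiles (subtypes) or 5 of 10 (Npy strata) were kept, and limma 3.58.1 in R 4.3.3 was fitted to log2(level + 0.1) with a term for each mouse (the block), and p-values were adjusted by the Benjamini-Hochberg method. The numbers pair samples because they come from the same mouse: deviations from the group means correlated at 0.0712 on average (42 pairs, −0.0775 to 0.232) for subtypes and 0.168 (5 pairs, 0.0624 to 0.228) for Npy strata. Summed levels over the members are given with no p, because the members were chosen with results known. Python 3.11.15 with scipy 1.17.1 was used for the rest, and the fits were tested on simulated data.

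Named genes are the 13 mitochondrial members, the 2 highest nuclear members of each complex, the 5 largest called differences each way per comparison with the same sign in every mouse, and tissue isoforms with their partners. Other genes were named after their values were seen. The members and all lists were chosen with earlier results of these data known.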

Additional observations from a re-analysis of the deposited data

Results flagged for a closer look

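In 219 groups of 5 mice, 1 mouse stood apart from the others by Dixon's gap test in 17 groups (7.76%). Chance alone gives about 1 in 20 groups.

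Mouse 5 stood apart in NA1a and NA2. In NA1a, mt-Cytb was at 75.2 UMIs per 10000 in mouse 5 against 19.7 to 35.6 in the others, and Atp5h, a stalk subunit of ATP synthase, was at 3.92 against 6.30 to 6.74. In NA2, mt-Atp8 was at 9.75 against 2.56 to 2.91 and mt-Atp6 at 208 against 122 to 145. Atp5h was at 8.62 against 10.9 to 11.6, and Ndufb3 at 1.71 against 3.23 to 3.80.

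In NA1c, mouse 3 stood apart for the nuclear sum (163 against 139 to 145), the complex I sum (55.1 against 44.5 to 46.4), Cox6b1 (1.80 against 2.94 to 3.14) and Cox6b2 (0.199 against 0 to 0.0485). In NA1b, Uqcr10 of mouse 4 was at 0.791 against 1.25 to 1.28.

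The other groups were members near 0 with UMIs in 1 mouse only. Cox4i2 was at 0.0119 in NA1b of mouse 2, at 0.0311 in NA1c of mouse 5 and at 0.319 in NA2 of mouse 2. Ndufa4l2 was at 0.0480 in NA1a of mouse 1, at 0.0506 in NA1c of mouse 2 and at 0.0304 in NA2 of mouse 5.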

How the results depend on the processing

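Of 384 recomputed counts of called members, 325 stayed within 1.5 times the reported count. Of 501 summed differences 485, and of 30 sums by mouse 24, stayed within 1 SD over mice. Of 3562 recomputed single members, 381 kept their direction but were no longer called, and 2 turned over. Both were in the Npy strata within NA1a, where Atp5e differed by 0.01 and Ndufs4 by −0.12. Where a value moved, the cause was not tested.

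Counts by setting are given with the share of all genes called in the same direction. Nuclear members higher in NA1a than in NA1b were 9 with a pseudocount of 1 (3.67%) and 1 with summed UMIs (2.15%). They were 1 with thinning to 2000 UMIs (0.761%) and 16 with only the 2 subtypes fitted (8.03%). In that last setting 1 mitochondrial member was lower (7.23%). Against NA1c, nuclear members higher were 17 with no filter (0.854%) and 13 with thinning (1.3%). Against NA2, 1 nuclear member was higher with no filter (14.8%), with centring (24.9%), per 10000 nuclear-encoded UMIs (30.5%) and with thinning (17.4%). Against NA3, mitochondrial members lower were 2 with no filter (6.16%) and 3 with summed UMIs (8.49%). Nuclear members higher were 5 with thinning (7.3%). Those lower were 3 with thinning (4.34%), 12 with a minimum of 5 neurons (8.6%) and 3 with only the 2 subtypes (8.92%).

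In the Npy strata, nuclear members higher were 5 with no filter (1.31% of all genes), 4 with summed UMIs (5.61%), 3 with thinning (2.15%) and 1 within NA1a (0.228%). Nuclear members lower were 0 with no filter (1.12% of all genes), with thinning (1.6%) and within NA1a (0.329%). Mitochondrial members lower were 0 with no filter (1.12%) and with summed UMIs (5.51%), and 7 within NA1a (0.329%).

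Without the replicate block for the mouse, 1 nuclear member was higher in NA1a than in NA2 (31.3% of all genes higher). In NA1a 7 mitochondrial members were lower than in NA3 (6.71% of all genes lower). In the Npy strata without the block, 3 nuclear members were higher and 0 lower (4.14% and 3.09% of all genes), and 0 mitochondrial members were lower. The block moved no other count of called members by over 1.5 times.

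Leaving out 1 mouse, nuclear members higher in NA1a than in NA1b ran from 0 (without mouse 1) to 8 (without mouse 5). Of all genes 1.23% and 1.81% were then higher. Against NA1c they ran from 11 (without mouse 1, 1.79% of all genes) to 24 (without mouse 5, 2.9%). Against NA2 they were 1 to 2 (26.5% to 29.9%). Against NA3 they ran from 5 (without mouse 4, 6.52%) to 9 (without mouse 3, 10.2%). Nuclear members lower than in NA3 ran from 2 (without mouse 2, 5.87% of all genes lower) to 6 (without mouse 3, 6.98%). Mitochondrial members lower ran from 0 (without mouse 2) to 12 (without mouse 5, 5.71%). Mitochondrial members higher in NA1c than in NA2 were 0 or, without mouse 5, 1 (33.9% of all genes higher). In the Npy strata, nuclear members higher ran from 3 (without mouse 1, 4.26% of all genes higher) to 15 (without mouse 5, 7.09%). Nuclear members lower ran from 0 (without mouse 1, 3.6% of all genes lower) to 2 (without mouse 5, 5.45%). Mitochondrial members lower ran from 0 to 9 (without mouse 5).

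With centring on the median gene, the log2 difference of NA1a from NA2 was −1.15 for the nuclear sum, −0.99 for complex I, −1.71 for III, −1.51 for IV and −0.86 for V. That of NA1c from NA2 was −1.87, −1.74, −2.33, −2.26 and −1.56 in the same order. With medians over neurons, NA1a differed from NA2 by −1.79 in the mitochondrial sum, −0.52 in complex V and 0.97 in the nuclear to mitochondrial ratio. Complex II against NA3 was −0.15 with thinning, 0.23 with a minimum of 5 neurons and 0.28 over members of at least 0.5 UMIs per 10000. With equal weight of the 4 larger subtypes, the mitochondrial sum of mouse 4 was 390 and the nuclear sum of mouse 2 was 252. Medians over neurons gave mitochondrial sums of 497, 395, 278 and 382 for mice 1, 2, 3 and 5.

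The median NA2 and NA1c neuron held 2341.5 and 2778.5 UMIs, 8 members under the filter on low values were not compared between subtypes, and NA3 rests on 3 mice.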

Other observations

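The lists around the pathway also varied with subtype. Cytosolic ribosomal protein genes summed to 767 UMIs per 10000 over the NA2 neurons, 476.5 in NA1a, 299 in NA1b and 310 in NA1c, highest in NA2 among these 4 like the nuclear oxidative phosphorylation members. In single thinned neurons their Spearman correlation with the nuclear members had a median of 0.624 over the 5 NA1a mice and 0.593 in NA1b, and −0.127 over 4 mice in NA2, where it was above 0 in 2. These are shares of the same total and were given no test. Malat1 correlated with the mitochondrial members at a median of −0.292 over the 22 profiles of a subtype in a mouse, above 0 in 2.

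Polg, the mitochondrial DNA polymerase, was the only one of 13 listed regulators to pass the filter, and it did not pass the filter on the mean over all profiles. It was called higher in both NA1a and NA1c than in NA2 by limma, by 1.43 and 1.48 on the log2 scale, whereas most members were lower in those comparisons. Its levels were low, at 0.348 ± 0.120 UMIs per 10000 in NA1a and 0.0790 ± 0.0927 in NA2.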
